A study of Homo sapiens with 12 samples.

Results

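The receptor tyrosine kinases EGFR, ERBB2, ERBB3, PDGFRA, PDGFRB, AXL, MET, FGFR1, IGF1R and KIT were taken by gene symbol from a table of 44659 genes measured by RNA sequencing in A375 cells. They make up 10 of those genes, and the rule that picks them uses their symbols and no measured value. A375 is a human skin melanoma cell line that carries an activating BRAF mutation. All 12 libraries were made from cytoplasmic RNA after rRNA depletion, with 3 libraries in each of 4 groups. CC cells received DMSO for 72 h. TC cells received the MAPK inhibitors (MAPKi) vemurafenib at 500 nM and cobimetinib at 500 nM for 72 h and were collected on day 0, PC cells received the same treatment and then spent 2 days in drug-free medium, and RC cells spent 9 days in drug-free medium. All cells were of a single line, and cells were passed when needed during recovery.

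A receptor tyrosine kinase is a membrane protein that binds a growth factor outside the cell and then phosphorylates itself and its adaptors inside it, which switches on the RAS-MAPK and PI3K-AKT pathways. Vemurafenib blocks mutant BRAF and cobimetinib blocks MEK, the next kinase of the MAPK pathway. In melanoma, receptors such as AXL, EGFR, PDGFRB, MET and IGF1R are known for high levels in some cells that survive these drugs, and KIT is a receptor of the melanocyte lineage. The transcripts measured here do not report protein levels or phosphorylation.

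Among the receptor transcripts, AXL rose under MAPKi, KIT had reads almost only in TC and PC, and EGFR, PDGFRA and FGFR1 fell. Promoter sequences of 4 of these genes are shown because they belong to genes whose levels lay on opposite sides of the control. Each is the 250 bases before the start of 1 RefSeq transcript on GRCh38.p14, on the plus strand, read 5′ to 3′. For KIT and PDGFRA that start lies downstream of the first base of the GENCODE gene given below. The PDGFRA window reaches into its gene, and the whole KIT window lies inside its gene. Capitals mark a match to 1 of 7 short motifs searched on both strands, and positions count bases from the start. The windows are chr19:41218973-41219222 for AXL, chr4:54657707-54657956 for KIT, chr7:55018767-55019016 for EGFR and chr4:54229043-54229292 for PDGFRA.
AXL: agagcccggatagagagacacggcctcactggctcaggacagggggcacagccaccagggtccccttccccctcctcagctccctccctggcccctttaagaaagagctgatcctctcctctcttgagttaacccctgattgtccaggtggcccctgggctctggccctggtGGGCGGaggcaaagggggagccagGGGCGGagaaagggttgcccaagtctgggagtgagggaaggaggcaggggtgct
KIT: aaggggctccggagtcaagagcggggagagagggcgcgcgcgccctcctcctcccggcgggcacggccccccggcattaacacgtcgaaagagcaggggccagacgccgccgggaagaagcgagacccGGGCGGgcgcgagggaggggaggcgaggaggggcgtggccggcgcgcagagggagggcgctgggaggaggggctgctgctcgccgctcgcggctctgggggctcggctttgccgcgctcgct
EGFR: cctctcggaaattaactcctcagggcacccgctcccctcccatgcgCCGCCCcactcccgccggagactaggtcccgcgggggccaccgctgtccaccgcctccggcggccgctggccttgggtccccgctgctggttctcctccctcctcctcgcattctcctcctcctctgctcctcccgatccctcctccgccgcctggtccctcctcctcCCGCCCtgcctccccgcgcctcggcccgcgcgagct
PDGFRA: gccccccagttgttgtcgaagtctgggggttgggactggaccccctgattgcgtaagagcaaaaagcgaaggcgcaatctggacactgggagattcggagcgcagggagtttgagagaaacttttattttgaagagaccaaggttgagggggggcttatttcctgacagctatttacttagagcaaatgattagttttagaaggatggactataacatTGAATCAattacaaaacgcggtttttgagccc

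The AXL window had a GC content of 64.4%, against 76.4% for KIT, 73.6% for EGFR and 46.8% for PDGFRA. AXL held 2 matches to the GC box letters GGGCGG, 78 and 54 bases before the start. KIT held 1 match, 122 bases before the start, and EGFR held 2, at 204 and 36 bases. PDGFRA held none and carried instead 1 match to the AP-1 letters TGANTCA, 32 bases before the start. GGGCGG occurred in 42.6% of 35097 RefSeq promoter windows of the same length and TGANTCA in 6.57%. The other letters searched were CACGTG (6.34% of windows), CATGTG (9.41%), GGAATG (11.9%), TGTTTAC (2.98%) and TATAAA (10.7%), and none of these 5 occurred in the 4 windows shown. MET, IGF1R and PDGFRB also had an entry in the promoter table and held matches to GGGCGG only, ERBB2 had an entry at another start, and ERBB3 and FGFR1 had none.

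The libraries held between 37773389 and 55567097 counted reads, and the level of a transcript within a library is given in CPM, its count scaled to a common library size after correction by the trimmed mean of M values. A count of 3 in a library corresponded to 0.0534 to 0.0785 CPM. A transcript is said to have risen or fallen when the edgeR quasi-likelihood test against a change of 1.5-fold gave a Benjamini-Hochberg adjusted p of at most 0.05 over the 15916 genes tested. All 12 libraries entered 1 fit, and log2 fold changes are given ± SE. The labels do not say whether replicates were separate cultures, so p-values measure the spread between these libraries, which may be technical. Fewer cells of a kind and less RNA per cell cannot be told apart in bulk RNA, and days without drug cannot be told apart from days in culture, since the control cells were collected on day 0. TC, PC and RC were each compared with the same CC libraries.

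Melanocyte lineage markers were present in every library, as the label of the cells has it. SOX10 stood at 650 to 664 CPM in CC, MITF at 303 to 476 CPM and S100B at 234 to 305 CPM. In CC the other members averaged 407 CPM for DCT, 138 for S100A1, 70.1 for PMEL and 17.3 for PAX3. TYRP1, TYR and MLANA were low there, at means of 3.64, 2.09 and 0.545 CPM. Lists for other cell types held both absent and present members. Of the 6 fibroblast markers that are not among the receptors, THY1 had no read in any library and DCN was at or below 0.0746 CPM, while LUM averaged 27.8 CPM in CC and FAP 16 CPM in CC and 68.4 CPM in TC. The summed level of these 6 was 39.1 to 53 CPM in CC, 66.2 to 86.7 in TC, 23.9 to 35 in PC and 39.4 to 42.5 in RC. Of 5 immune markers, PTPRC was at or below 0.694 CPM and CD3E at or below 0.0463 CPM, while CD68, a lysosomal protein of macrophages, averaged 154 CPM in CC and rose to 881 CPM in TC (2.52 ± 0.15 on the log2 scale, edgeR adjusted p = 6.2e-08). The immune sum was 128 to 174 CPM in CC, 719 to 1060 in TC, 633 to 774 in PC and 119 to 132 in RC. Of 7 keratinocyte and epithelial markers, KRT5 was at or below 0.0217 CPM, while KRT18 averaged 82.9 CPM in CC and 13.8 CPM in TC and KRT10 45.9 and 91.9 CPM. Their sum was 116 to 145 CPM in CC, 103 to 109 in TC, 103 to 113 in PC and 113 to 119 in RC. Of 4 endothelial markers, CDH5 had no read in any library and VWF averaged 4.11 CPM in CC and 2.07 CPM in TC, and the sum was 3.43 to 5.23 CPM in CC, 1.77 to 2.33 in TC, 1.72 to 2.17 in PC and 3.33 to 3.57 in RC. The summed level of the 10 melanocyte markers moved with the groups: it was 1850 to 2030 CPM in CC, 7260 to 10500 in TC, 3680 to 5300 in PC and 1650 to 1710 in RC. Most of the TC sum was DCT, which averaged 6450 CPM there. DCT, PMEL, TYRP1, MLANA and TYR rose and S100B fell in TC. The part of these marker shifts in the receptor results was not tested.

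Under MAPKi (TC against CC), 2 of the 10 receptors rose and 3 fell, where 16% of all tested genes rose and 19.2% fell. At 2 days after removal (PC against CC), 2 rose and 4 fell, against 17.1% and 19.8% of all genes. KIT entered the test only through its reads in TC and PC, so that it had to differ. Without KIT, 1 of 9 rose and 3 fell in TC, and 1 of 9 rose and 4 fell in PC. The median log2 fold change over these 9 was 0.18 in TC and 0.01 in PC (0.32 and 0.11 with KIT), and over all tested genes it was -0.02 and -0.04.

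**Figure D1:**
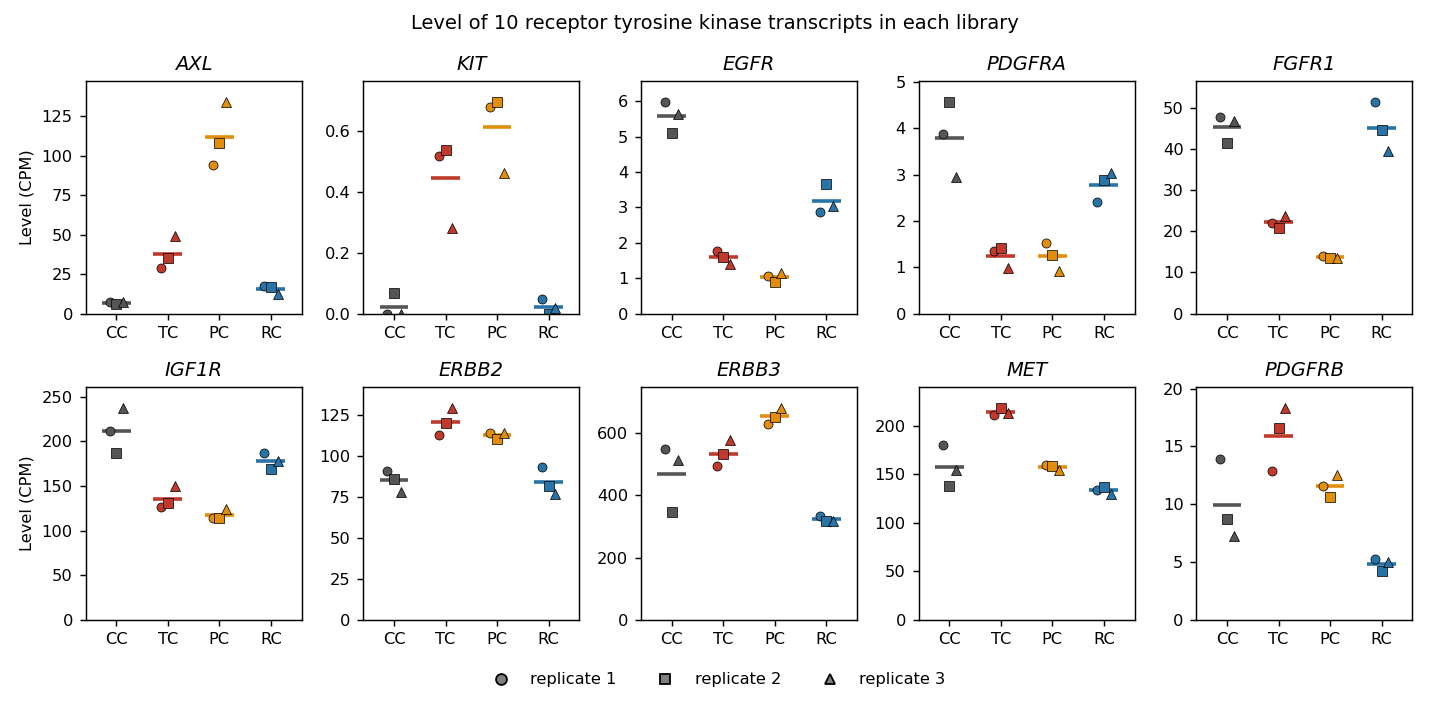
Level of each receptor transcript (y axis, CPM from 0) in each of the 12 libraries, by group on the x axis, with symbols for the replicate numbers and horizontal lines for the group means. AXL peaks in PC at 94.1 to 134 CPM, KIT is near 0 in CC and RC, and EGFR, PDGFRA, FGFR1 and IGF1R dip in TC and PC.

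AXL, the receptor for GAS6, showed the largest rise of the 9 receptors whose fold could be estimated. It lies on the plus strand at chr19:41219223-41261766 (GRCh38, GENCODE v44). The 3 CC libraries stood at 7.25, 6.28 and 7.34 CPM, the TC libraries at 29.1, 35.3 and 49.3 CPM, the PC libraries at 94.1, 108 and 134 CPM, and the RC libraries at 17.5, 16.6 and 12.7 CPM. The 4 groups did not overlap, with PC highest, then TC, then RC, then CC. TC exceeded CC by 2.45 ± 0.21 on the log2 scale (5.44-fold, edgeR adjusted p = 4.21e-06) and PC exceeded CC by 4.01 ± 0.22 (16.1-fold, edgeR adjusted p = 4.36e-08).

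The AXL level was thus higher 2 days after drug removal than at the end of treatment. PC exceeded TC by 1.56 ± 0.19 on the log2 scale (2.95-fold, edgeR adjusted p = 0.00299), although a fit of those 6 libraries alone gave an adjusted p of 0.0971. By day 9 AXL had fallen from PC by 2.84 ± 0.20 on the log2 scale (edgeR adjusted p = 6.15e-07). All RC libraries lay above every CC library, and the difference of 1.16 ± 0.21 (2.24-fold) had an edgeR adjusted p of 0.0501, just outside the threshold. This call depended on the settings, since AXL passed in RC under library totals (adjusted p = 0.0301), in a fit of RC and CC alone (adjusted p = 0.021), or without TC replicate 1 (adjusted p = 0.0231), TC replicate 3 (adjusted p = 0.0135), PC replicate 1 (adjusted p = 0.0431), PC replicate 3 (adjusted p = 0.0347) or RC replicate 3 (adjusted p = 0.0297). Over the alternatives that kept the 1.5-fold test, the adjusted p ran from 0.0135 to 0.148. The edgeR test against no change gave 0.00123. The log2 fold change ran from 1.08 to 1.30.

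KIT, the receptor for stem cell factor, lies on the plus strand at chr4:54657267-54740783 and was present at very low level. CC libraries held 0, 3 and 0 reads, TC libraries 20, 21 and 15 reads, PC libraries 26, 32 and 20 reads, and RC libraries 2, 0 and 1 reads. Every TC and PC library lay above every CC and RC library. With 3 counts per library as the floor for CC, KIT was at least 6.5-fold higher in TC (0.445 ± 0.143 CPM, SD, n = 3) and at least 8.95-fold higher in PC (0.613 ± 0.13 CPM, SD, n = 3). No p is given for KIT, because the reads that let it into the test are those of the groups where it is high. KIT in RC was at least 9.99-fold lower than in PC, and no fold is given between RC and CC, which were both at the floor.

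EGFR, the receptor for EGF, TGFA and amphiregulin, moved the other way. It lies on the plus strand at chr7:55019017-55211628. The CC libraries stood at 5.97, 5.11 and 5.65 CPM, the TC libraries at 1.76, 1.61 and 1.4 CPM, the PC libraries at 1.05, 0.891 and 1.16 CPM, and the RC libraries at 2.88, 3.65 and 3.03 CPM. No 2 groups overlapped, and all 3 drug-exposed groups lay below CC. EGFR fell by 1.81 ± 0.18 on the log2 scale in TC (edgeR adjusted p = 1.04e-05) and by 2.43 ± 0.18 in PC (edgeR adjusted p = 3.1e-07). It rose from PC to RC by 1.63 ± 0.18 (edgeR adjusted p = 3.62e-05) to a level 0.571 times that of CC, a difference that did not pass (-0.81 ± 0.17, edgeR adjusted p = 0.326).

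PDGFRA, a receptor for platelet-derived growth factors, lies on the plus strand at chr4:54229280-54298245. Its levels were 3.87, 4.56 and 2.94 CPM in CC, 1.35, 1.41 and 0.989 CPM in TC, 1.52, 1.26 and 0.925 CPM in PC, and 2.41, 2.88 and 3.04 CPM in RC. Every TC and PC library was below every CC and RC library, while RC and CC overlapped. PDGFRA fell by 1.61 ± 0.24 on the log2 scale in TC (edgeR adjusted p = 0.000534) and by nearly the same amount in PC (-1.62 ± 0.24, edgeR adjusted p = 0.000459). The rise from PC to RC was 1.17 ± 0.24 (edgeR adjusted p = 0.0104), but DESeq2 gave an adjusted p of 0.0756, and without PC replicate 3 edgeR gave 0.05. In the annotation, 1533 exon bases of PDGFRA are shared with another gene on the same strand (ENSG00000282278), and how reads there were assigned is not given in the sources used here.

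FGFR1, a fibroblast growth factor receptor, lies on the minus strand at chr8:38400215-38468834. The libraries held 47.7, 41.3 and 46.7 CPM in CC, 22.1, 20.9 and 23.8 CPM in TC, 14.1, 13.4 and 13.5 CPM in PC, and 51.3, 44.6 and 39.4 CPM in RC. TC lay below all CC libraries, PC lay below all TC libraries, and RC covered the range of CC. FGFR1 fell by 1.02 ± 0.10 on the log2 scale in TC (edgeR adjusted p = 0.000302) and by 1.73 ± 0.10 in PC (edgeR adjusted p = 9.01e-08), then rose by 1.72 ± 0.10 from PC to RC (edgeR adjusted p = 8.61e-08). The step from TC to PC (-0.71 ± 0.10) did not pass the 1.5-fold test (edgeR adjusted p = 0.513). Exons of FGFR1 share 138 bases with LETM2 and 387 bases with another gene, both on the opposite strand.

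IGF1R, the receptor for insulin-like growth factors, lies on the plus strand at chr15:98648539-98964530 and showed the same dip with a smaller size. Its levels were 212, 187 and 237 CPM in CC, 126, 131 and 150 CPM in TC, 114, 114 and 124 CPM in PC, and 187, 169 and 178 CPM in RC. TC and PC lay below every CC library, and RC lay just below the lowest of them. The fall passed the test in PC (-0.86 ± 0.09, edgeR adjusted p = 0.00405). In TC it did not (-0.65 ± 0.09, edgeR adjusted p = 0.229), except without CC replicate 2 (edgeR adjusted p = 0.0428).

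**Figure D2:**
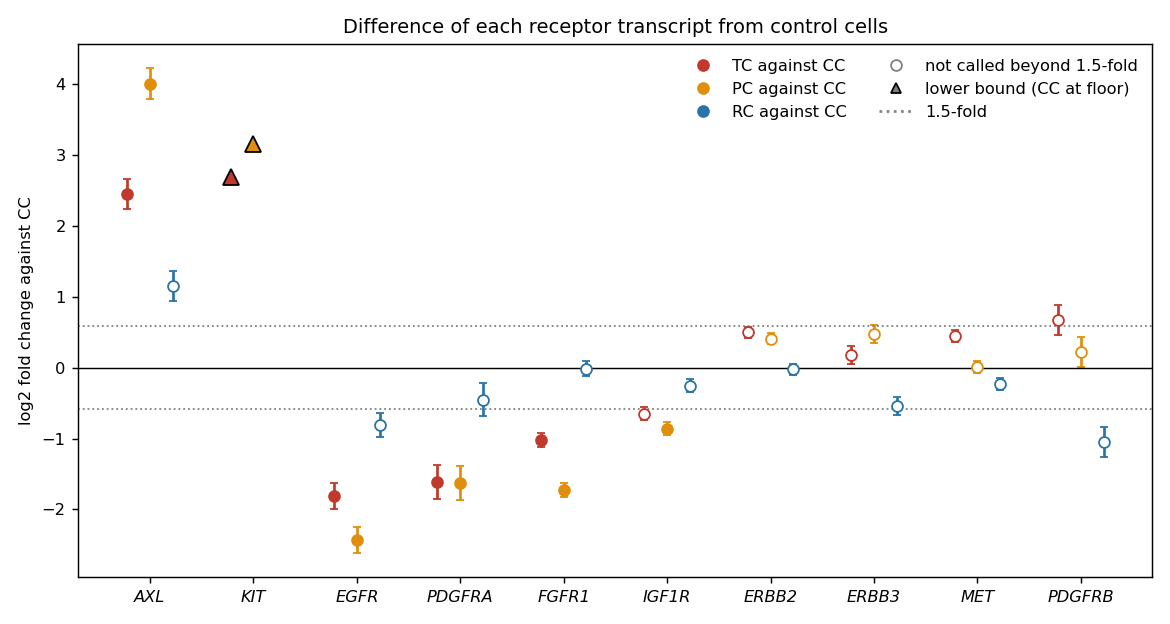
Difference of each receptor transcript from CC (y axis, log2 fold change, error bars SE) for TC, PC and RC, each with 3 libraries. Filled circles passed the 1.5-fold test and open circles did not, dotted lines mark 1.5-fold, and triangles are lower bounds for KIT, whose RC value is left out. AXL and KIT lie above the band in TC and PC, and EGFR, PDGFRA, FGFR1 and IGF1R lie below it, with IGF1R open in TC. PDGFRB in TC lies above the band and is open. Every RC circle is open, whether inside the band or outside it.

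ERBB2 and MET passed no test in any of the 5 comparisons. ERBB2, the shared partner of the ERBB receptors, lies on the plus strand at chr17:39687914-39730426 and stood at 91, 86.1 and 78.2 CPM in CC, 113, 120 and 129 CPM in TC, 114, 110 and 114 CPM in PC, and 93.5, 81.4 and 76.9 CPM in RC. All TC and PC libraries were above all CC libraries, by 0.50 ± 0.08 and 0.41 ± 0.08 on the log2 scale, below the tested fold (edgeR adjusted p = 0.948 and 1). Against no change, the same differences had edgeR adjusted p of 0.000126 and 0.000682. ERBB2 shares 571 exon bases with MIEN1 and 144 with PGAP3 on the opposite strand.

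MET, the receptor for hepatocyte growth factor, lies on the plus strand at chr7:116672196-116798377. It stood at 180, 138 and 154 CPM in CC, 211, 218 and 213 CPM in TC, 160, 159 and 154 CPM in PC, and 134, 137 and 130 CPM in RC. TC was the highest group and did not overlap with any other, while PC lay within the range of CC. TC exceeded CC by 0.45 ± 0.08 on the log2 scale (edgeR adjusted p = 1 against 1.5-fold and 0.000254 against no change).

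ERBB3, the neuregulin receptor, lies on the plus strand at chr12:56076799-56103505 and was the most abundant of the 10 transcripts per kilobase of exon. Its levels were 548, 346 and 515 CPM in CC, 493, 532 and 577 CPM in TC, 629, 653 and 680 CPM in PC, and 334, 318 and 319 CPM in RC. PC was above all other libraries and RC below all of them, while TC overlapped CC, where replicate 2 was low. Neither TC (0.18 ± 0.13, edgeR adjusted p = 1) nor PC (0.48 ± 0.13, edgeR adjusted p = 0.851) passed against CC. From PC to RC, ERBB3 fell by 1.01 ± 0.13 on the log2 scale (edgeR adjusted p = 0.00246).

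PDGFRB, the second receptor for platelet-derived growth factors, lies on the minus strand at chr5:150113839-150155872. It stood at 13.9, 8.72 and 7.28 CPM in CC, 12.9, 16.6 and 18.3 CPM in TC, 11.6, 10.6 and 12.5 CPM in PC, and 5.22, 4.24 and 5.01 CPM in RC. CC replicate 1 lay above the other CC libraries and inside the range of TC, while RC lay below all other groups. PDGFRB fell from PC to RC by 1.26 ± 0.21 on the log2 scale (edgeR adjusted p = 0.00261). TC exceeded CC by 0.68 ± 0.21 (edgeR adjusted p = 0.303), which became 0.99 with an adjusted p of 0.0117 without CC replicate 1. RC was below CC by -1.05 ± 0.21 on the log2 scale (edgeR adjusted p = 0.106), which became -1.22 with an adjusted p of 0.0215 without CC replicate 3.

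The harvests after drug removal were compared with each other directly. From day 0 to day 2 (PC against TC), 1 of the 10 receptors rose, AXL, and none fell, while 2.36% of all genes rose and 1.17% fell. At an unadjusted p under 0.05 in the edgeR 1.5-fold test, 1 receptor was lower in PC, FGFR1, and DESeq2 called 0 lower. The share of all genes under that unadjusted threshold was not counted. From day 2 to day 9 (RC against PC), 3 receptors rose (EGFR, PDGFRA and FGFR1) and 4 fell (AXL, KIT, ERBB3 and PDGFRB), against 20.1% and 18.5% of all genes. Without KIT, 3 of 9 rose and 3 fell.

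After 9 days without drug (RC against CC), edgeR called 0 of the 10 receptors higher and 0 lower, with 1.4% and 2.66% of all genes called. DESeq2 also called 0 in each direction. At an unadjusted p under 0.05 in the edgeR 1.5-fold test, AXL was higher and EGFR and PDGFRB were lower. The share of all genes at this unadjusted threshold was not counted either. Against no change, edgeR called 1 receptor higher and 5 lower. That test called 2879 of all 15916 tested genes higher and 3016 lower. Under that looser test AXL was above CC, and EGFR, PDGFRB, ERBB3, MET and IGF1R were below it, with MET (edgeR adjusted p = 0.0378) and IGF1R (edgeR adjusted p = 0.0423) closest to the threshold.

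The order of the receptors within a group was read from CPM per kilobase of annotated exon, the scale on which levels of different genes can be set side by side. In CC the order was ERBB3 (40.1 CPM per kilobase), MET (21.8), IGF1R (15.2), ERBB2 (8.25), FGFR1 (2.63), PDGFRB (1.4), AXL (1.36), PDGFRA (0.397), EGFR (0.35) and KIT (0.00199). AXL overlapped PDGFRB, and PDGFRA overlapped EGFR. AXL thus stood in position 7 in CC. In TC it was at position 5 with 7.39 CPM per kilobase, overlapping IGF1R at 9.73, and above FGFR1, which had dropped to 1.29.

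In PC, AXL reached position 2 with 21.8 CPM per kilobase, level with MET at 21.8 and overlapping it, and below ERBB3 at 55.8. ERBB2 (10.9) and IGF1R (8.42) followed. EGFR at 0.0648 CPM per kilobase overlapped KIT at 0.0541 in this group, whereas in CC KIT was far below EGFR. In RC the order again had ERBB3 (27.6), MET (18.5), IGF1R (12.8) and ERBB2 (8.13) at the top, and AXL (3.04) overlapped FGFR1 (2.62). Exon lengths came from an annotation other than the one used for counting and include all annotated transcripts, so the order is approximate.

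**Figure D3:**
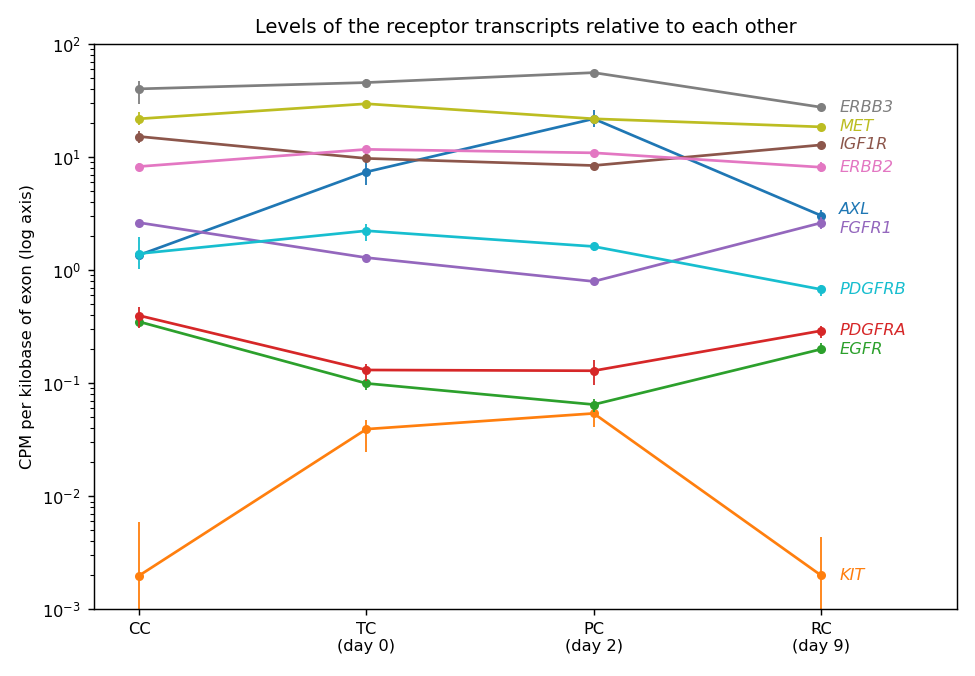
Mean CPM per kilobase of annotated exon (y axis, log axis) of the 10 receptors in each group (x axis), with vertical lines from the lowest to the highest of 3 libraries and lines reaching the lower edge where a library had 0 reads. ERBB3 is highest throughout, AXL moves from 1.36 in CC to 21.8 in PC and meets MET there, and KIT meets EGFR in PC.

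The receptors also differed in which other genes they resembled across the 12 libraries, measured by the root mean square difference of log2 CPM after each gene was centred on its own mean. AXL was nearest to THBS1, which encodes the matrix protein thrombospondin-1, at 0.297 among 11906 candidates. EGFR was nearest to MAGI1 (0.144), FGFR1 to PRRC2B (0.12), IGF1R to ZXDC (0.081), PDGFRA to USP18 (0.171), PDGFRB to NTN4 (0.17) and KIT to FAM167B (0.265). KIT averaged 0.0226 CPM in CC and 0.0227 CPM in RC, below the pseudocount of 0.1 CPM. Its pattern and nearest gene therefore depend on that pseudocount. ERBB2 was nearest to INTS5 (0.058), MET to EHD3 (0.064) and ERBB3 to LINC00205 (0.084). Between receptors, ERBB2 and MET were most alike (0.184), then ERBB2 and ERBB3 (0.284), ERBB3 and MET (0.327) and EGFR and FGFR1 (0.354). The measure is small for any genes that change little, as ERBB2 and MET did. In PC, ERBB2 averaged 113 CPM against 85.1 in CC, while MET averaged 158 against 157.

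Of 28 ligands of these receptors and their families, 20 were tested. In TC, 7 rose and 6 fell, and in PC, 11 rose and 5 fell. Beside these stand 16% and 19.2% of all tested genes in TC and 17.1% and 19.8% in PC. The median log2 fold change of the ligands was 0.55 in TC and 1.01 in PC, against -0.02 and -0.04 over all tested genes. Some of these ligands also entered the test mainly through the groups where they were high. FGF7, which rose, had a mean count of 4.33 in CC. HGF and AREG, which fell, had 6.67 and 8.67 in TC. Counts of ligands without them are not given. The 3 ligands named by size were HGF, FGF5 and FGF2.

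HGF, the ligand of MET, stood at 13.2 to 16.6 CPM in CC, 0.0518 to 0.242 CPM in TC and at most 0.0523 CPM in PC. The TC libraries held 2, 5 and 13 reads, and HGF was lower there by 6.64 ± 0.39 on the log2 scale (7.33 without TC replicate 3). In PC it was at least 211-fold lower. No p is given for TC, because HGF entered the test mainly through groups where it was high. HGF rose again to 2.69 to 2.81 CPM in RC, still lower than in CC (fell by 2.45 ± 0.30, edgeR adjusted p = 0.000955). MET itself changed by less than 1.5-fold in all groups.

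FGF5, a fibroblast growth factor, rose from 1.08 to 1.58 CPM in CC to 43.4 to 54.8 CPM in TC (5.15 ± 0.15 on the log2 scale, edgeR adjusted p = 2.52e-11) and 65.7 to 84.9 CPM in PC (5.78 ± 0.15, edgeR adjusted p = 8.79e-12). In RC it was at 1.17 to 1.21 CPM, within the range of CC. FGF2 averaged 20.5 CPM in CC against 2.55 CPM in TC (fell by 3.01 ± 0.16, edgeR adjusted p = 6.9e-09) and 2.28 CPM in PC. The ligands of FGFR1 and its family therefore moved in both directions.

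The remaining ligands are named after their values were seen, as the ligands of AXL, KIT, EGFR and the ERBB3 family. GAS6, the ligand of AXL, rose from a mean of 1.78 CPM in CC to 11.5 in TC (2.70 ± 0.30, edgeR adjusted p = 1.48e-05) and 5.37 in PC (1.60 ± 0.29, edgeR adjusted p = 0.00229), and was at 1.49 in RC. PROS1, the other ligand of the AXL family, was at 156 CPM in CC and 208 CPM in TC and did not pass in any comparison with CC. KITLG, the ligand of KIT, rose from 6.18 CPM in CC to 14.6 in PC (1.24 ± 0.20, edgeR adjusted p = 0.00282) and stayed at 16.4 in RC (1.41 ± 0.20, edgeR adjusted p = 0.00896), when KIT reads were again at the floor. The RC call of KITLG was lost without CC replicate 1.

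Ligands of EGFR split. HBEGF rose from 11 CPM in CC to 39.4 in TC (1.84 ± 0.23, edgeR adjusted p = 0.000239) and BTC from 0.865 to 5.74 CPM (2.72 ± 0.23, edgeR adjusted p = 9.21e-07). TGFA fell from 122 to 47.8 CPM (fell by 1.35 ± 0.13, edgeR adjusted p = 2.38e-05). AREG went from 0.8 to 0.201 CPM (lower by 1.99 ± 0.47). No p is given for AREG, whose mean count in TC was 8.67. NRG1, a ligand of ERBB3, was at 0.556 CPM in CC and rose to 2.29 CPM in PC (2.04 ± 0.28, edgeR adjusted p = 0.000136). The more abundant neuregulins fell. NRG2 went from 12.9 CPM in CC to 3.62 in PC (-1.83 ± 0.11, edgeR adjusted p = 1.06e-07). NRG3, a ligand of the ERBB family rather than of ERBB3 itself, went from 23.5 to 8.62 CPM (-1.45 ± 0.28, edgeR adjusted p = 0.00547).

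**Figure D4:**
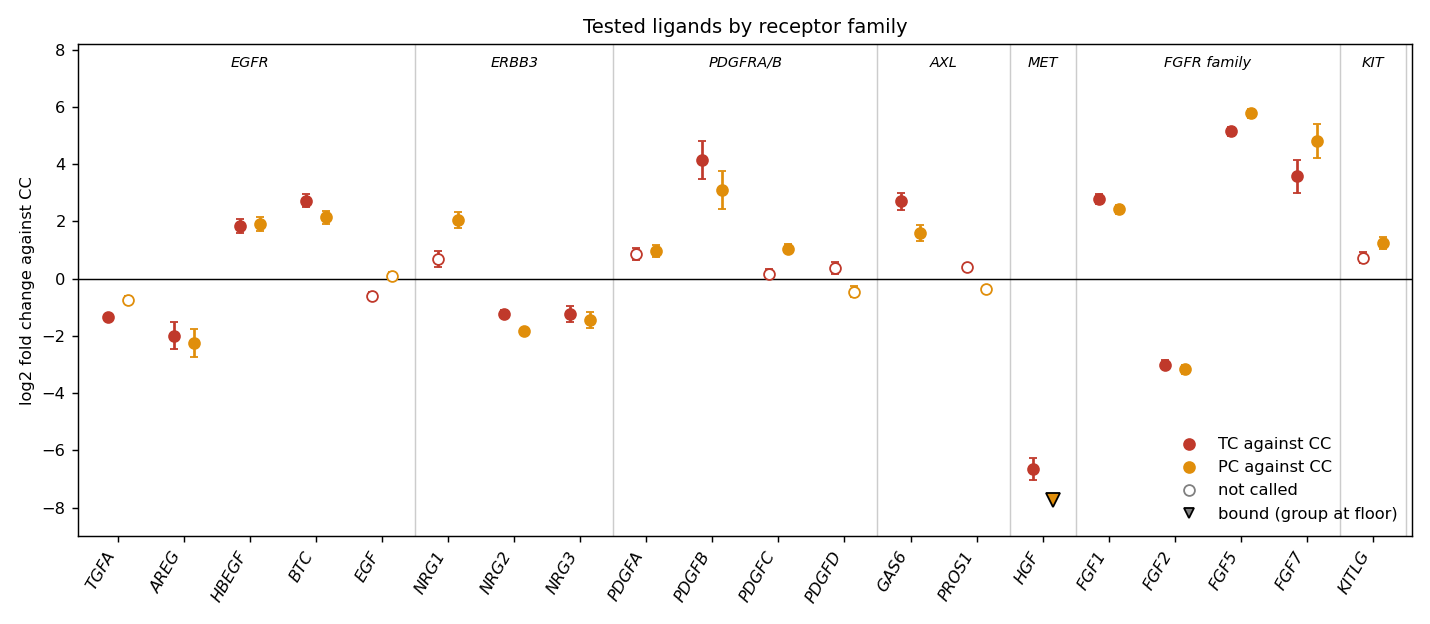
Difference from CC (y axis, log2 fold change, error bars SE) of the 20 tested ligands in TC and PC, grouped along the x axis by receptor family. The group headed ERBB3 holds all tested neuregulins, not only ligands of ERBB3. Filled circles passed the 1.5-fold test, open circles did not, and the triangle is a bound for HGF in PC. FGF5 has the largest rise at 5.15 in TC and 5.78 in PC, and HGF the largest fall.

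Some relatives of the receptors rose or fell with them. Of 34 other receptor tyrosine kinases, 23 were tested, with 8 rising and 4 falling in TC (median log2 fold change -0.04) and 8 rising and 7 falling in PC (median 0.11). Over all tested genes the medians were -0.02 and -0.04, with 16% rising and 19.2% falling in TC and 17.1% and 19.8% in PC. Some of these receptors entered the test mainly through the groups where they were high, as KIT did. Among those rising in TC, FGFR2 and RET had mean counts of 0.667 and 4 in CC. Among those falling, KDR had 1.33 in TC and LTK 6.33 in PC. Counts without such genes are not given. FLT1, a receptor for vascular endothelial growth factor, rose from 3.9 CPM in CC to 51.9 in TC (3.73 ± 0.12, edgeR adjusted p = 5.39e-11) and 139 in PC, and was at 16.5 in RC, above CC (2.07 ± 0.12, edgeR adjusted p = 4.09e-06). FGFR3 stood at 2.2, 1.72 and 2.56 CPM in CC and at 5.47, 18.7 and 50.9 CPM in TC, groups that did not overlap although the TC libraries were far apart. Its rise in TC was 3.54 ± 0.71 (edgeR adjusted p = 0.00447), 2.49 without TC replicate 3 (edgeR adjusted p = 0.00386), and did not pass in a fit of TC and CC alone (adjusted p = 0.0514). DDR2, a collagen receptor, fell from 289 to 58.9 CPM in TC (fell by 2.30 ± 0.14, edgeR adjusted p = 1.12e-07).

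Within the families of AXL and FGFR1, members moved in opposite directions, and these relatives are named after their values were seen. TYRO3, a sister receptor of AXL with 209 CPM in CC, was at 90.2 CPM in TC (fell by 1.21 ± 0.10, edgeR adjusted p = 1.68e-05) and 82.7 CPM in PC, while MERTK, the other sister, rose from 0.738 to 2.31 CPM in TC (1.65 ± 0.25, edgeR adjusted p = 0.000642). FGFR4 rose from 26.3 CPM in CC to 87.4 in TC (1.73 ± 0.16, edgeR adjusted p = 1.09e-05) and 153 in PC (2.54 ± 0.16, edgeR adjusted p = 1.24e-07), over the same libraries in which FGFR1 fell. FGFR2, at the floor in CC, was at least 8-fold higher in TC and at least 31.5-fold higher in PC. In RC, TYRO3, MERTK, FGFR2, FGFR3 and FGFR4 did not pass against CC.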

How the data were processed

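Cytoplasmic RNA of A375 cells was depleted of rRNA and sequenced in 12 libraries. The authors deposited raw read counts per gene, made by trimming with fastp 0.20.1, alignment with HISAT2 2.2.1 to GRCh38.p13 and counting on exons with HTSeq 0.13.5, per the labels and the study's methods. Strand and multi-mapped read settings are not given in the sources used here. Counts were fitted with edgeR 4.0.16 in R 4.3.3 (TMM factors 0.965 to 1.02, 1 mean per group, robust quasi-likelihood, test against a 1.5-fold change, two-sided), for genes with a mean scaled count of at least 10. The common biological coefficient of variation was 0.182. DESeq2 1.42.0 was an alternative. The script was tested on simulated data.

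The members and gene lists were chosen with earlier results of these data known. All receptors are named. From each other list, the 3 genes with the largest log2 fold change in TC against CC were named, among those called, with a mean count of 100 or more and TC and CC libraries that did not overlap, and each receptor was given its 1 nearest gene over a pseudocount of 0.1 CPM. Other genes were chosen after their values were seen. A count of 3 was taken as the floor of a library. Exon lengths came from GENCODE v44. The level of a further immune marker is not reported here.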

Additional observations from a re-analysis of the deposited data

Results flagged for a closer look

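Receptor levels at successive harvests differed by a direct test of 1 harvest against another in 7 cases, each from the edgeR test against a 1.5-fold change. Time without drug and time in culture cannot be told apart in these comparisons. AXL was higher in PC than in TC by 1.56 on the log2 scale (edgeR adjusted p = 0.00299). From PC to RC, AXL changed by -2.84 (edgeR adjusted p = 6.15e-07), ERBB3 by -1.01 (edgeR adjusted p = 0.00246) and PDGFRB by -1.26 (edgeR adjusted p = 0.00261). EGFR rose by 1.63 (edgeR adjusted p = 3.62e-05), FGFR1 by 1.72 (edgeR adjusted p = 8.61e-08) and PDGFRA by 1.17 (edgeR adjusted p = 0.0104). KIT is not counted here, since it entered the test only through its reads in TC and PC. Groups of 3 libraries are too small for a search for single outlying libraries.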

How the results depend on the processing

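Against no change in place of 1.5-fold, edgeR called 5 receptors higher in TC and 4 in PC (2 and 2 against 1.5-fold), 1 higher and 5 lower in RC (0 and 0), and 3 lower in PC against TC (0). AXL was the 1 receptor called higher in RC under library totals and in a fit of only the groups compared, and that last setting left 0 receptors higher in PC against TC (1). Without 1 library at a time, the receptors called in RC ran from 0 to 1 higher and from 0 to 1 lower. Uncalled differences near 0 changed sign. Under library totals ERBB2 in RC against CC was 0.01, FGFR1 there 0.02 and PDGFRA in PC against TC 0.00, DESeq2 gave 0.00 for FGFR1 and 0.01 for PDGFRA, and a filter on a summed count of at least 2 gave 0.00 for FGFR1. Leaving out 1 library gave, for RC against CC, ERBB2 -0.10 to 0.05, FGFR1 -0.10 to 0.09, KIT -1.09 to 3.06, GRB10 -0.29 to 0.07, SH2B3 -0.05 to 0.61 and IGFBP6 -0.10 to 0.04, for PC against TC, PDGFRA -0.18 to 0.16, FGF2 -0.25 to 0.04, GRB10 0.00 to 0.10, SH2B3 -0.06 to 0.06 and LRIG1 -0.04 to 0.08, and for PC against CC, MET -0.08 to 0.11. Column names share a replicate number across the groups, but the labels do not call it a pairing. With that number as a block, AXL in RC against CC was 1.18 (edgeR adjusted p = 0.0588), and every count of receptors called was as without it. Deviations of same-numbered libraries correlated at -0.039 to 0.168, with the own number highest in 9 of 15 comparisons. In PC against TC they correlated at 0.068 to 0.168, and libraries of other numbers at 0.002 or less. In RC against PC they correlated at -0.039 to 0.01, each below the best other number. Across all genes, the calls in RC against CC were 223 higher and 424 lower, with 144 and 278 by DESeq2 and, without 1 CC or RC library, as few as 125 and 240 and as many as 376 higher. Against no change the calls over all genes were 5269 and 5506 in TC, 5270 and 5696 in PC, 2879 and 3016 in RC, 1937 and 1959 in PC against TC, and 5663 and 5427 in RC against PC. Group mean levels under library totals, an alternative chosen after seeing the data, moved by less than 1 SD for all 10 receptors. With a floor of 0.0534 to 0.0785 CPM, KIT could not be compared between RC and CC. The cause of these changes was not tested.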

Other observations

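Transcripts of proteins that act with the receptors are counted here against all tested genes, of which 16% rose and 19.2% fell in TC. Among 16 tested genes listed as receptor adaptors, 4 rose, 4 fell and 8 were not called in TC. SHC2 rose from 8.06 CPM in CC to 37.7 in TC (2.22 ± 0.15 on the log2 scale, edgeR adjusted p = 1.22e-07) and SHC4 from 14.9 to 46.4 CPM (1.64 ± 0.11, edgeR adjusted p = 4.76e-07), while GRB10, an adaptor of the insulin and IGF receptors, fell from 123 to 40.1 CPM (fell by 1.62 ± 0.15, edgeR adjusted p = 1.24e-05). Of 15 tested inhibitors and turnover factors of receptors, 1 rose, 3 fell and 11 were not called. LRIG1 rose from 7.27 to 16.4 CPM (1.17 ± 0.23, edgeR adjusted p = 0.0106) and its relative LRIG3 fell from 11.8 to 4.2 CPM (fell by 1.48 ± 0.12, edgeR adjusted p = 3.83e-06), as did SH2B3, from 226 to 75.3 CPM (fell by 1.58 ± 0.25, edgeR adjusted p = 0.00224).

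Of 6 tested genes for proteins that bind insulin-like growth factors, 2 rose, 1 fell and 3 were not called in TC, with a median log2 fold change of -0.02, the same as over all tested genes. IGFBP5 went from 2.79 CPM in CC to 79.4 in TC (4.84 ± 0.15, edgeR adjusted p = 3.36e-11) and IGFBP6 from 17.8 to 59.4 CPM (1.74 ± 0.12, edgeR adjusted p = 4.49e-07), while IGFBP2 dropped from 451 CPM in CC to 0.558 times that level (fell by 0.84 ± 0.09, edgeR adjusted p = 0.0056). Of 9 transcription factors known to act on receptor genes, 3 rose in TC: JUN from 46.7 to 952 CPM (4.35 ± 0.09, edgeR adjusted p = 1.05e-12), TFAP2A from 26.1 to 193 CPM (2.88 ± 0.14, edgeR adjusted p = 3.57e-09) and FOXD3 from 24.5 to 120 CPM (2.28 ± 0.09, edgeR adjusted p = 1.06e-09). In RC, JUN and FOXD3 were called lower than in CC.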
